A study of Rattus norvegicus with 12 samples.

Results

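The genes described are 10 members of the TSPAN family of tetraspanins in rat lung, Tspan2, Tspan3, Tspan4, Tspan6, Tspan7, Tspan8, Tspan12, Tspan13, Tspan15 and Tspan18. They were chosen by symbol, with their counts in the air and CNC columns already known, from a table of 30045 symbols in which 9 others also begin with Tspan. Their difference between the groups is therefore given as a description, without a test. RNA was sequenced from a piece of lung of each of 12 male Fischer 344 rats, aged 3 months when bought. Of these, 6 breathed air and 6 breathed crystalline nanocellulose (CNC), rod-like particles made from plant cellulose, at 20 mg/m3. Exposure was of the whole body, 6 hours a day and 5 days a week, to a total of 14 days of exposure, and the lungs were collected 1 day after the last. No transgene or deletion was involved, and the 2 groups differed by the exposure alone as far as the labels say.

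Tetraspanins are small proteins that pass several times through the membrane and carry a large outer loop with a conserved cysteine motif. They bind sideways to integrins, immunoglobulin-like proteins, proteases and receptors, gather them in membrane patches, and steer their traffic through endosomes and vesicles. In lung they are found on endothelium, epithelium and leukocytes, with a different set of members on each.

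Levels are given as CPM (counts scaled to a common library total), scaled between libraries by the trimmed mean of M-values (TMM). They are not divided by transcript length, so they are compared between rats for a gene and not between genes. The libraries held from 8693259 to 16603697 counts. A gene passed the test where edgeR's quasi-likelihood test, adjusted by Benjamini-Hochberg over 15019 tested genes, gave a value under 0.05. Of the 10 members, 9 passed the filter on low counts. Tspan4 did not. All 9 were well above the filter in both groups. Per library they held from 343 counts, for Tspan6, to 10432, for Tspan7.

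Tspan18, Tspan12 and Tspan7 were lower in the CNC lungs. Tspan18 is a partner of the calcium channel Orai1 in human endothelial cells. Its level ran from 59.1 to 73.3 CPM in the air rats, with a median of 65.8, and from 45.3 to 57.4 CPM in the CNC rats, with a median of 53.1. The highest CNC rat was below the lowest air rat. Its log2 fold change, CNC minus air, was -0.34 ± 0.06 (SE, n = 6 per group), the lowest of the members. Tspan12 is a co-receptor that strengthens signalling from Norrin through Frizzled 4 in mouse retinal vessels. It ranged from 197 to 214 CPM in air (median 199) and from 157 to 176 CPM in CNC (median 167), again without overlap. The log2 fold change of Tspan12 was -0.28 ± 0.03 (SE, n = 6 per group). Tspan7, an X-linked member first described in leukaemic T cells and neurons and also made by endothelium, lay between 561 and 652 CPM in air (median 583) and between 439 and 540 CPM in CNC (median 481). All 6 CNC rats were below all 6 air rats, and the log2 fold change was -0.30 ± 0.05 (SE, n = 6 per group).

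The promoters of 4 TSPAN genes are shown because they stand for the different outcomes: Tspan18 had the lowest log2 fold change among the members, Tspan13 the smallest spread between rats, Tspan15 a level close to that in air, and Tspan11, which is not a member, was higher in CNC. The letters are the 250 bases before the start site, written 5′ to 3′ along the gene, from RefSeq on the build GRCr8, which is a later build than the Rnor6 in the name of the count table. Capitals mark the searched motifs on either strand: the GC box (GGGCGG), the CCAAT box (CCAAT), the TATA box (TATAAA) and the E-box (CACGTG), of which no pair overlapped here except neighbouring GC boxes.
Tspan18 (GRCr8 chr3:99755271-99755520, - strand): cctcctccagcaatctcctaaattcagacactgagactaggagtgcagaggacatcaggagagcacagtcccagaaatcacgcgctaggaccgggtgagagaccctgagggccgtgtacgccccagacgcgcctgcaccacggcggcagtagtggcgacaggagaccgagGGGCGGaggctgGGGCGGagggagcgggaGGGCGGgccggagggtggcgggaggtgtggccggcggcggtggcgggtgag
Tspan13 (GRCr8 chr6:58492805-58493054, - strand): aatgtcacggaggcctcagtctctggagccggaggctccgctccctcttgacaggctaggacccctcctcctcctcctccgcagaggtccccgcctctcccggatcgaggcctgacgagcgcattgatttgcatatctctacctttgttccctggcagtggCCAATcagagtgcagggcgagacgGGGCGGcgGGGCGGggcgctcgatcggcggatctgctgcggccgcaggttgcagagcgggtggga
Tspan15 (GRCr8 chr20:30717652-30717901, - strand): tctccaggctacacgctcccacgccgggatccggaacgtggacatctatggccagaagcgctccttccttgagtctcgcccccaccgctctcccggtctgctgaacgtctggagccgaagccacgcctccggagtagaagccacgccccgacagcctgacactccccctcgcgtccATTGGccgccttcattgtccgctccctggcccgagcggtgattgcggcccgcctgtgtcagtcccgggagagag
Tspan11 (GRCr8 chr4:162424299-162424548, + strand): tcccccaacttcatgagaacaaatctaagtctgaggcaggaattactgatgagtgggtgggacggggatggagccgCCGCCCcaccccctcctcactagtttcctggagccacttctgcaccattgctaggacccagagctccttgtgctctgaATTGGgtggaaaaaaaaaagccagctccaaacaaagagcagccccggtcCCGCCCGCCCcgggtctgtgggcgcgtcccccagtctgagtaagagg
RefSeq sequences were matched by symbol for 9 of the 10 members, all but Tspan4. Of these 9, 5 held a GC box (Tspan2, Tspan3, Tspan7, Tspan13 and Tspan18), as did 32.4% of 27457 promoters of the same length. A CCAAT box stood in 3 of them (Tspan3, Tspan13 and Tspan15), against 34.3% of all. The TATA box letters, present in 13.1% of all promoters, and the E-box letters, present in 5.8%, were in none of the 9 windows. The G and C content ran from 50.0% for Tspan6 and Tspan12 to 73.6% for Tspan7, where the median of all promoters was 52.0%.

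Tspan13, Tspan2 and Tspan8 were also lower in the CNC lungs, each without overlap between the groups. Tspan13, reported to modulate voltage-gated calcium channels, spanned 306 to 328 CPM in the air rats (median 313) and 259 to 275 CPM in the CNC rats (median 263). Its values were the tightest of the members, with a coefficient of variation of 2.59% in air and 2.57% in CNC, and the log2 fold change was -0.24 ± 0.03 (SE, n = 6 per group). Tspan2, known from oligodendrocytes and from differentiated vascular smooth muscle, ran from 288 to 350.5 CPM in air (median 319) and from 238 to 279 CPM in CNC (median 268). No CNC rat reached the air range for Tspan2, and the log2 fold change was -0.28 ± 0.05 (SE, n = 6 per group). Tspan8, an epithelial and tumour-associated member found on secreted vesicles, went from 173 to 188 CPM in air (median 181) and from 151 to 169.8 CPM in CNC (median 156). The Tspan8 ranges did not overlap either, though the highest CNC rat came close to the lowest air rat, and the log2 fold change was -0.20 ± 0.03 (SE, n = 6 per group).

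**Figure D1:**
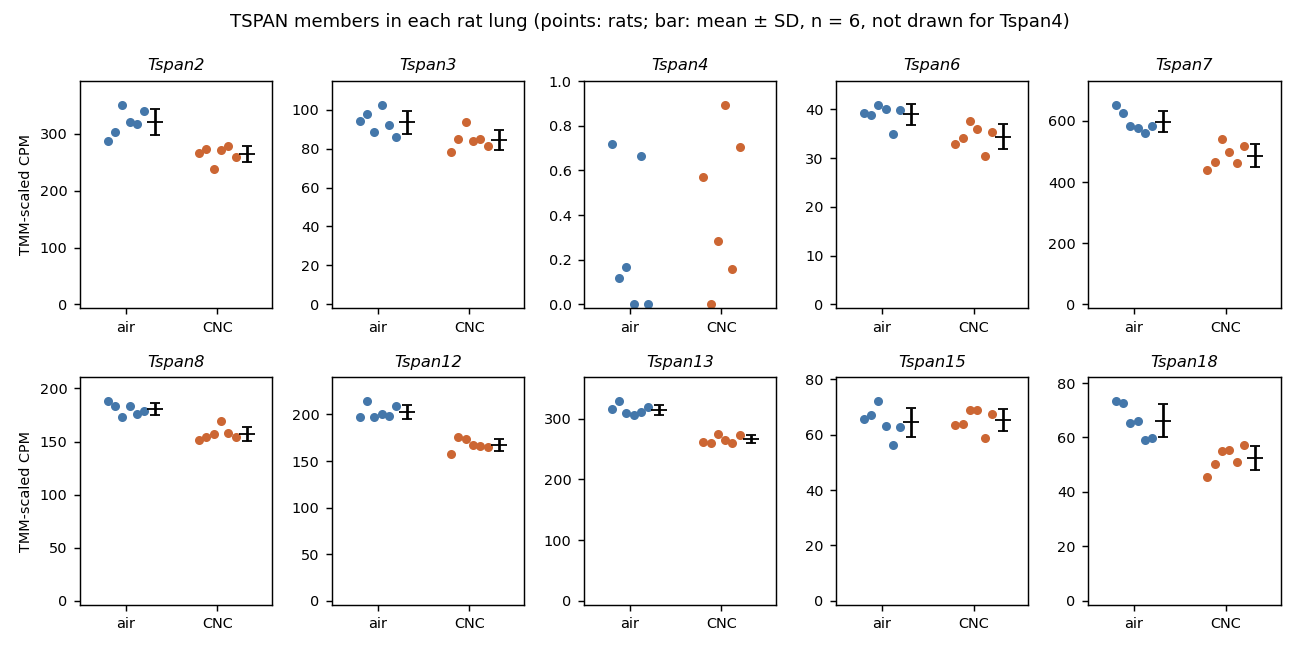
Level of each member (y axis, TMM-scaled CPM from 0, a separate scale per panel) in every rat lung, air on the left and CNC on the right, with the mean ± SD of 6 rats beside the points; Tspan4 has no bar since it was near 0. The CNC points lie wholly below the air points for Tspan2, Tspan7, Tspan8, Tspan12, Tspan13 and Tspan18, overlap partly for Tspan3 and Tspan6, and share the air range for Tspan15.

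For Tspan3 and Tspan6 the groups overlapped. Tspan3, a widely expressed member, ran from 86.2 to 102 CPM in air (median 93.2) and from 78.4 to 93.4 CPM in CNC (median 84.4). For this gene 5 of the 6 CNC rats were below the lowest air rat, and the log2 fold change was -0.15 ± 0.05 (SE, n = 6 per group). Tspan6, reported to dampen RIG-I-like receptor signalling in human cells and to act on vesicle sorting with syntenin, ran from 34.9 to 40.9 CPM in air (median 39.5) and from 30.4 to 37.7 CPM in CNC (median 34.8). Here 3 of the 6 CNC rats were below the lowest air rat. Tspan6 had a log2 fold change of -0.18 ± 0.05 (SE, n = 6 per group). The air rat at 34.9 CPM stood apart from the other 5, which lay between 38.9 and 40.9 CPM.

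Tspan15 did not move with the others. It is a member of the group with extra cysteines in the outer loop, which escort the sheddase ADAM10 to the cell surface. Its level was 56.3 to 72.1 CPM in air (median 64.4) and 58.9 to 69.1 CPM in CNC (median 65.8), so that every CNC rat lay inside the air range. The log2 fold change of Tspan15 was 0.02 ± 0.05 (SE, n = 6 per group). Tspan4, known for its part in migrasomes on the trailing fibres of rat kidney cells, had 21 counts summed over the air libraries and 33 over the CNC libraries. By rat, these were 10, 2, 2, 0, 7 and 0 counts in air and 7, 0, 4, 13, 2 and 7 in CNC, too few for Tspan4 to be tested. The annotation behind the counts is not given in the sources used here, so that little Tspan4 RNA and a row that catches few of its reads cannot be told apart.

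In all, 8 of the 9 tested members passed the threshold, all 8 lower in CNC, beside 24.6% of all tested genes in either direction and 11.4% lower. In 6 of the 9 the groups did not overlap with CNC the lower, beside 4.7% of all tested genes with CNC lower, 6.82% with CNC higher and 11.5% either way. The members were picked with this comparison known, so nothing is read from these shares. The median log2 fold change over the 9 was -0.24 and over all tested genes -0.0026, a difference that the choice of members shares in. The differences were small. Tspan18 fell by 21.0% of its air level in the fit and Tspan3 fell by 9.71%, and the other 6 lay between them. Between 5.07% and 19.1% of all tested genes had a lower log2 fold change than these 8 genes, and 54.9% had a lower one than Tspan15. Summed over the 10 members, the level was 1878 ± 43.3 CPM with air and 1579 ± 53.1 with CNC (mean ± SD of 6 rats).

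The spread between rats within the air group differed between the 9 members. In the air group the coefficient of variation ran from 2.59% for Tspan13 to 9.21% for Tspan18. Over the 5908 tested genes with a mean level between those of the lowest and the highest of the 9, the median was 5.22%, and the quartiles were 3.81% and 7.26%. Tspan15 (8.07%) and Tspan18 were above the upper quartile, and Tspan13, Tspan8 (3.05%) and Tspan12 (3.5%) were below the lower one. Since these are pieces of whole lung, fewer cells of a type and less RNA per cell cannot be told apart for any of the genes.

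Among the 9 other TSPAN genes, which are what the choice of members left over, the data went both ways. All 9 were tested, and 2 passed as higher and 2 as lower, beside 13.2% of all tested genes higher and 11.4% lower. One of the 2 higher genes, Tspan10, could pass the filter on low counts through its CNC libraries alone, and with a filter of a mean of at least 1 CPM the counts were 1 higher and 2 lower. Their median log2 fold change was -0.06. Tspan9, a platelet member, fell from 256 ± 16.0 CPM in air to 211 ± 10.2 in CNC (mean ± SD of 6 rats), with a log2 fold change of -0.28 ± 0.04 and adjusted p = 0.000265 by edgeR. Its ranges, 238 to 283 CPM in air and 200.1 to 224 CPM in CNC, did not overlap. Tspan14, another escort of ADAM10, fell by 0.14 ± 0.04 on the log2 scale (edgeR adjusted p = 0.0249), from 68.1 ± 4.12 to 62.0 ± 2.16 CPM (SD, n = 6 per group). The Tspan14 call was lost without air replicate 1 or 2 or without CNC replicate 5 or 6, and with the clock covariate described below (adjusted p from 0.0511 to 0.52).

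Tspan11 and Tspan10 were the higher ones. Tspan11, a member with little known function, ran from 2.23 to 11.4 CPM in air (median 7.8) and from 18.4 to 25.5 CPM in CNC (median 20.7). Every CNC rat was above every air rat, and the air rats differed among themselves far more than the CNC rats, with coefficients of variation of 46.5% and 11.5%. The log2 fold change of Tspan11 was 1.50 ± 0.25 (edgeR adjusted p = 0.000369), a 2.83-fold rise, and the call ended with the clock covariate (0.98, adjusted p = 0.153). Tspan10, also called oculospanin and known from pigment cells, had 2, 3, 3, 3, 1 and 0 counts in the air libraries and 23, 16, 29, 23, 16 and 28 in the CNC libraries. Every CNC library was above every air library. Since the filter let Tspan10 in through the group where it is high, its call is no evidence of a difference, and the fitted log2 fold change of 3.41 ± 0.35 (SE) rests on 12 counts in the air group and 135 in the CNC group. The other 5 had adjusted p from 0.114 to 0.618 by edgeR: Tspan1, Tspan5, Tspan17, Tspan31 and Tspan33, with log2 fold changes between -0.22 and 0.10.

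**Figure D2:**
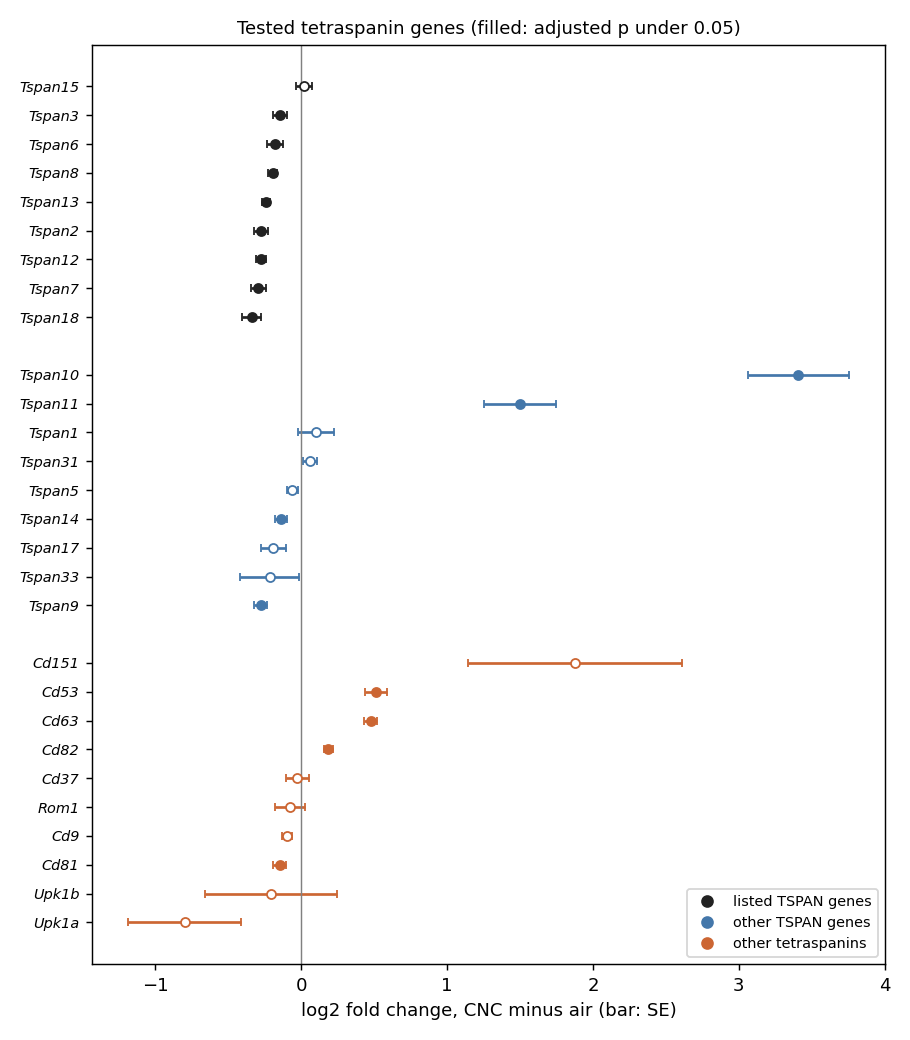
Log2 fold change, CNC minus air (x axis, bars are SE), of the 28 tested tetraspanin genes, in the order listed TSPAN genes, other TSPAN genes and other tetraspanins; filled points passed the threshold. The listed genes other than Tspan15 sit between -0.34 and -0.15, while Tspan11 lies at 1.50 and Tspan10, with 12 counts in the air group, at 3.41.

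Tetraspanins with other names include the leukocyte and endosomal members. Of 11 looked for, 10 were tested, and 3 rose and 1 fell, beside 13.2% and 11.4% of all tested genes, with a median difference in log2 of -0.05. Cd63, which marks late endosomes, lysosomes and exosomes, rose from 175 ± 10.9 CPM in air to 243 ± 10.6 in CNC (mean ± SD of 6 rats), with a log2 fold change of 0.48 ± 0.04 and adjusted p = 2.23e-06 by edgeR. Cd53, found on leukocytes, rose from 79.1 ± 8.47 CPM in air to 113 ± 11.8 in CNC (mean ± SD of 6 rats; log2 fold change 0.51 ± 0.08, edgeR adjusted p = 0.000136), and the call of Cd53 ended with the clock covariate (adjusted p = 0.0565). Cd82, which restrains cell migration, rose from 103 ± 2.84 CPM in air to 118 ± 1.94 in CNC (mean ± SD of 6 rats; log2 fold change 0.19 ± 0.03, edgeR adjusted p = 0.00019). For these 3 all CNC rats were above all air rats. Cd81, a partner of the B cell co-receptor also present on many other cells, fell from 489.5 ± 19.6 CPM in air to 441.5 ± 30.9 in CNC (mean ± SD of 6 rats; log2 fold change -0.15 ± 0.05, edgeR adjusted p = 0.0237). The Cd81 call was lost without air replicate 1 or 2, without CNC replicate 1 or 5 and with the clock covariate (adjusted p from 0.0553 to 0.213).

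**Figure D3:**
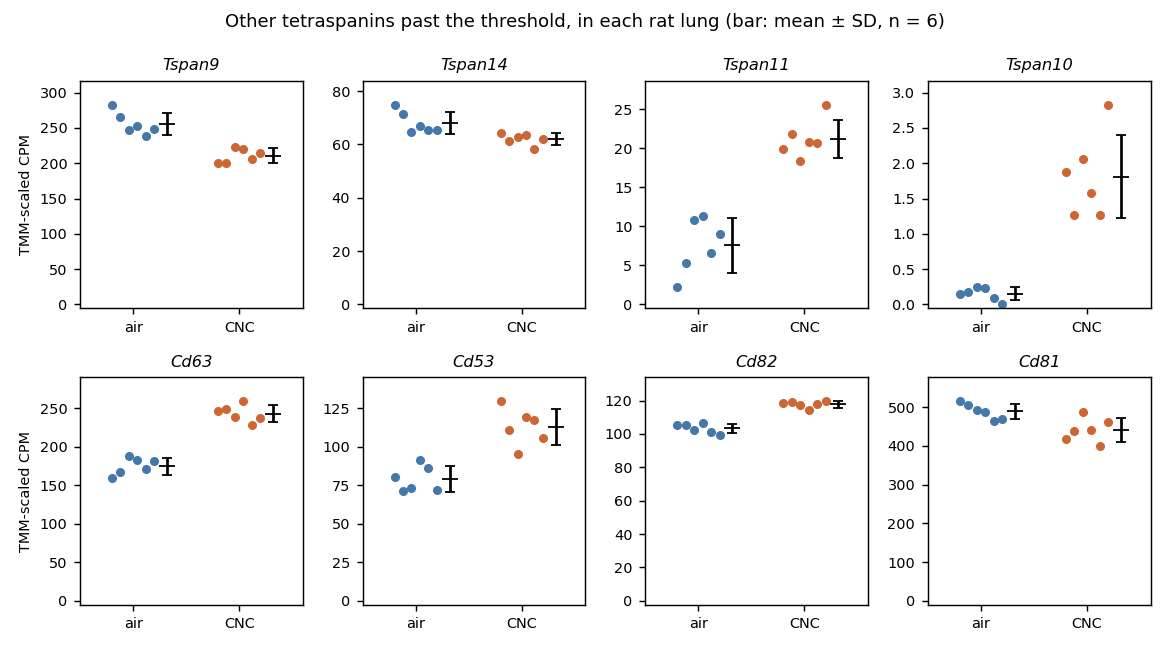
Level in every rat lung (y axis, TMM-scaled CPM from 0, a separate scale per panel) of the 8 tetraspanins outside the member list that passed the threshold, with the mean ± SD of 6 rats. Tspan9, Tspan14 and Cd81 are lower in CNC, and Tspan11, Tspan10, Cd63, Cd53 and Cd82 are higher, with overlap between groups for Cd81 alone.

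The RNA of genes whose proteins TSPAN members are known to work with did not share one direction, and protein was not measured. For Tspan15 the partner is ADAM10: Adam10 was 182 ± 7.54 CPM with air and 184 ± 4.81 with CNC (mean ± SD of 6 rats; log2 fold change 0.01 ± 0.03, edgeR adjusted p = 0.871). In a list of ADAM10, its relative ADAM17 and their substrates, 2 of 10 tested genes rose and 3 fell, beside the same 13.2% and 11.4%, with a median difference in log2 of -0.02. The shed chemokines Cx3cl1 (0.43 ± 0.06, edgeR adjusted p = 0.000161) and Cxcl16 (0.16 ± 0.04, adjusted p = 0.00896) rose, while the endothelial cadherin Cdh5 (-0.37 ± 0.04, adjusted p = 2.5e-05) and the amyloid precursor App (-0.20 ± 0.03, adjusted p = 0.000389) fell. For Tspan12 the partner is the receptor Frizzled 4: Fzd4 fell from 209 ± 10.4 CPM in air to 181 ± 6.64 in CNC (mean ± SD of 6 rats; log2 fold change -0.21 ± 0.04, edgeR adjusted p = 0.000814). In the Norrin and Frizzled 4 list 4 of 9 tested genes passed and each fell, beside 11.4% of all tested genes, with a median of -0.15, among them the endothelial transcription factor Sox17 (-0.55 ± 0.07, adjusted p = 7.41e-05), the fenestral diaphragm protein Plvap (-0.30 ± 0.05, adjusted p = 0.000945) and the Wnt target Axin2 (-0.15 ± 0.04, adjusted p = 0.0194). The Norrin gene itself, Ndp, was listed at 0 counts in all 12 libraries. As for Tspan4, absent RNA and a row that catches no reads cannot be told apart. The Axin2 call ended without CNC replicate 5 (adjusted p = 0.0509) and without air replicates 4 and 5 together (adjusted p = 0.0766). The Norrin and Frizzled 4 list takes no account of the direction in which signalling moves each gene. No change in that signalling is therefore read from the falls, and none was tested.

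For Tspan18 the partner Orai1 was 26.3 ± 1.64 CPM with air and 27.6 ± 2.2 with CNC (mean ± SD of 6 rats; edgeR adjusted p = 0.456). Of 8 genes of store-operated calcium entry, 1 rose and 1 fell, beside 13.2% and 11.4% of all tested genes: the channel Orai3 rose (0.13 ± 0.04, adjusted p = 0.0233) and the sensor Stim2 fell (-0.16 ± 0.04, adjusted p = 0.00414), and the median was 0.0053; with library size as the only scaling the Orai3 call was lost (adjusted p = 0.059). For Tspan6 the partner is syntenin: Sdcbp rose by a log2 fold change of 0.14 ± 0.03 (edgeR adjusted p = 0.00604), from 530.5 ± 14.8 to 583 ± 20.9 CPM (SD, n = 6 per group). In the list of multivesicular bodies and vesicle release 4 of 11 tested genes passed and each rose, beside 13.2% of all tested genes, with a median of 0.09. The secretory GTPase Rab27a had the largest change of these 4 (0.37 ± 0.05, adjusted p = 9.16e-05). The other 2, the sorting protein Tsg101 and the raft protein Flot2, had adjusted p = 0.0337 and 0.0422, and their calls were lost in 10 and 12 of 21 other settings, among them leaving out air replicate 1 or 5 or CNC replicate 2 or 4, each of which left 2 genes in the list. Integrins and immunoglobulin-like partners gave 2 rises and 2 falls among 11 tested genes (median -0.04), beside 13.2% and 11.4% of all tested genes. The tetraspanin-binding protein Igsf8 rose (0.56 ± 0.08, edgeR adjusted p = 0.000142) and its relative Ptgfrn fell (-0.24 ± 0.04, adjusted p = 0.000245), the adhesion receptor Cd44 rose (0.30 ± 0.06, adjusted p = 0.00212) and the integrin chain Itgb1 fell (-0.14 ± 0.03, adjusted p = 0.00205).

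Markers of several lung cell types moved with the exposure as well, and their part in the TSPAN values was not tested. Endothelial markers summed to between 3476 and 3906 CPM in air and between 2801 and 3141 CPM in CNC, and all 9 of 9 fell, with a median difference in log2 of -0.29, beside log2 fold changes from -0.34 for Tspan18 to -0.15 for Tspan3 in the 8 lower members and 0.02 for Tspan15. Alveolar type 1 markers ran from 5567 to 7113 CPM in air and from 5168 to 5445 CPM in CNC, with 4 of 7 lower (median -0.19). Among these 7, Cav1 had the largest change (log2 fold change -0.37, from a mean of 1596 CPM in air to 1235 in CNC). It alone had no overlap between the groups, and Aqp5, Pdpn and Akap5 did not pass. Fibroblast markers ran from 836 to 1081 CPM in air and from 689 to 775 CPM in CNC, with 3 of 4 tested lower. Type 2 cell markers were higher in CNC (26909 to 33099 CPM, against 19996 to 26399 in air), and 5 of 7 rose. Their sum was mostly Sftpc and Sftpa1, at means of 10230 and 6941 CPM of 22856 in air. Sftpb (log2 fold change 0.006) and Etv5 (-0.01) did not pass. Macrophage markers (314 to 392 CPM in air, 414 to 643 in CNC) were higher too, with 3 of 4 tested rising and Marco at 0 in all libraries. Neutrophil markers (124 to 211 CPM in air, 307 to 529 in CNC) were also higher, with 3 of 4 rising. The mean neutrophil sum went from 168 to 406 CPM, mostly through S100a9 (73.2 to 275 CPM). Cxcr2 (log2 fold change 0.39) passed with overlap between the groups, and Csf3r (0.18) did not pass. Each of these 6 sums differed with p = 0.00216 in a 2-sided exact permutation test over 924 splits of the 12 rats, the smallest it can give, or 0.00402 adjusted over 13 marker sums. Red cell markers fell with the same values. The marker lists were chosen with earlier results of these data known, so the p-values of the 13 sums are given as a description. Ciliated and airway secretory sums were lower (exact permutation test, adjusted p = 0.00625 and 0.0281), with 1 of 4 and 2 of 5 tested genes lower. The ciliated sum was mostly Tppp3, at 580.0 CPM of 674 in air, and the other 3 ciliated markers had log2 fold changes of 0.0074 (Ccdc39), 0.02 (Foxj1) and 0.18 (Dynlrb2). The airway secretory sum was mostly Scgb1a1, at 5728 CPM of 5954 in air (log2 fold change -0.27). The other gene that passed, Bpifa1, had 860 of its 1075 air counts in 1 library. Scgb3a1 (-1.49) and Cyp2f4 (-0.74) did not pass, nor did Scgb3a2 (0.14). Smooth muscle, heart muscle and lymphocyte sums had adjusted p of 0.0895, 0.253 and 0.316 by the exact permutation test. All 5 smooth muscle genes had a negative log2 fold change (median -0.23), and 2 passed as lower (Myh11 and Tagln, each -0.23). In the lymphocyte list 1 of 3 tested genes passed (Cd8a, -0.20), and in the heart muscle list 0 of 5 did. No gene of those lists is a TSPAN gene.

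Circadian clock genes differed between the groups, and the comparison was repeated with them as a covariate. The 12 clock genes summed to between 653 and 953 CPM in air and between 914 and 1151 CPM in CNC (exact permutation test, adjusted p = 0.00625), with 7 higher and 4 lower. The clock output gene Dbp, for example, was 14.7 ± 9.72 CPM with air and 59.8 ± 19.3 with CNC (mean ± SD of 6 rats), and the times of day at which the rats were killed were not analysed here. The clock score of a rat was the mean of its scaled levels of the 12 genes, whichever way each gene moved. It ran from -0.63 to 0.10 in air and from 0.0018 to 0.41 in CNC. Score and exposure thus went together and cannot be fully told apart, so a call lost with this covariate is not read as a clock effect. With the mean clock score of each rat as a covariate 3 of the 9 members passed the threshold (Tspan8, Tspan12 and Tspan13), and 942 of 15019 genes did in all. Under that covariate the member log2 fold changes were -0.35 for Tspan18, -0.31 for Tspan7, -0.30 for Tspan2, -0.27 for Tspan12 and -0.26 for Tspan6. Those of the other members were -0.23 for Tspan8, -0.22 for Tspan13, -0.21 for Tspan3 and 0.02 for Tspan15. Without the covariate Tspan6 was at -0.18 and Tspan3 at -0.15. Whether time of day had a part in these values was not tested.

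**Figure D4:**
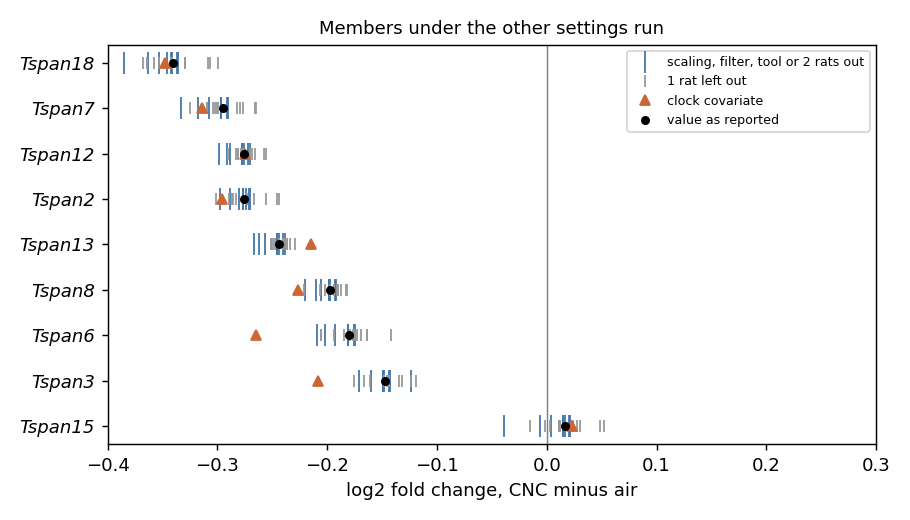
Log2 fold change, CNC minus air (x axis), of the 9 tested members as reported (black points), with 1 rat left out (short grey ticks), under other scalings, filters and tools or with 2 rats out (long blue ticks) and with the clock covariate (orange triangles). The 8 members below 0 stay below 0 in all 21 settings, and Tspan15 lies on both sides of 0, from -0.04 to 0.05.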

How the data were processed

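RNA was measured in lung from 6 air and 6 CNC rats. Per the labels' protocols, stranded mRNA libraries were built from column-purified total RNA with 12 cycles of PCR. Per the submitters' processing notes the tools included HISAT2 2.1.0 and HTSeq 0.11.2, with bcl2fastq 2.19, Trimmomatic 0.35, SAMtools 1.8 and Cufflinks, and their roles are not given. The authors deposited raw counts per gene symbol. Which annotation and strand setting were used is not given in the sources used here, so overlapping and antisense genes are uncertain. Rats are separate animals, which were housed 3 per cage. No libraries looked like repeats of each other: the chi-square per degree of freedom over 30 within-group pairs was 2.69 to 8.36.

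Counts were filtered with filterByExpr (minimum count 10, minimum total 15), scaled by TMM and tested with edgeR 4.0.16 (glmQLFit, glmQLFTest) in R 4.3.3, over all 12 rats with no covariate. An SE is the log2 fold change divided by the square root of F. The procedure was tested on simulated data. It recovered 74% of 50 genes changed 1.25-fold and 100% of those changed 1.5-fold, 2-fold or 4-fold. Of its 194 calls there, 7 were false. Changes smaller than 1.25-fold were not simulated. Alternatives were 3 other scalings, 2 filters, DESeq2 1.42.0, limma-voom (limma 3.58.1), each rat left out and a clock gene covariate, and, added after seeing the data, air rats 4 and 5 left out together, whose heart muscle markers were highest. Members and gene lists were chosen with earlier results of these data known. The text names all members, all other tetraspanins by count, up to 4 passing genes per partner list and 4 known partners whatever their result. Figures used matplotlib 3.10.9.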

Additional observations from a re-analysis of the deposited data

Results flagged for a closer look

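Within each group of 6 rats, 56 sets of values for single tetraspanin genes were examined for a rat far from the other 5, and 4 were found, where chance gives about 1 in 20. Tspan6 was 34.87 CPM in air replicate 5, below the other air rats at 38.9 to 40.9 CPM. Tspan8 was 169.8 CPM in CNC replicate 4, above the other CNC rats at 151.4 to 158.2 CPM. Upk1b, a urothelial tetraspanin, was 18.39 CPM in CNC replicate 1, where the others ran from 4.46 to 9.07 CPM. Rom1, a photoreceptor tetraspanin, was 4.755 CPM in air replicate 6, where the others ran from 3.75 to 4.11 CPM.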

How the results depend on the processing

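Over 21 other settings the log2 fold change of each tested member moved by less than the spread between rats, and the 8 negative ones kept their sign. The number of members past the threshold ran from 6 to 8 with 1 rat left out and was 3 with the clock covariate. Tspan3 passed in 9 and Tspan6 in 17 of the 21. The members were chosen with this comparison known, and the settings reuse the same rats. These passes therefore describe the fits and are no support for a difference. With the clock covariate the other counts were 2 of 9 other TSPAN genes (Tspan9 and Tspan10), 2 in the ADAM10 list, 1 in the Norrin list, 1 among integrin partners, 1 in the vesicle list and 0 in the calcium entry list (edgeR; 1 at an unadjusted p under 0.05). That covariate also ended the calls of App, Cxcl16, Fzd4, Plvap, Axin2, Ptgfrn, Itgb1, Cd44, Stim2, Orai3 and Sdcbp (adjusted p from 0.0652 to 0.452), and the cause was not tested. The vesicle list had 2 genes with library size alone, with upper-quartile scaling and with air rats 4 and 5 left out, and 2 to 5 with 1 rat left out. The calcium entry list had 1 with library size alone. Cd9 did not pass as reported (adjusted p = 0.0554) and passed in 6 settings (0.0143 to 0.0493). Upk1a passed with the clock covariate alone (edgeR adjusted p = 0.0403). It had only 74 counts over the air libraries and 43 over the CNC libraries, and its log2 fold change ran from -2.02 to -0.35 over the settings. All marker sums kept their side of the threshold with library size alone. No paired analysis was possible because the replicate numbers only name rats. Depth limits Tspan4, Tspan10, Tspan33 and Upk1a.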

Other observations

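Cd151, a tetraspanin that binds laminin receptors, had 15, 31, 33, 27, 11 and 11 counts in the air libraries and 15, 11, 145, 22, 23 and 229 in the CNC libraries, so that 2 CNC rats stood far above the other 10 rats. As for Tspan4, little RNA and a row that catches few reads cannot be told apart. Its log2 fold change was 1.88 ± 0.73 (edgeR adjusted p = 0.0744), and over the 21 settings it ran from 0.53 to 2.11. Cd151 passed the threshold without CNC replicate 1, 2 or 4 in turn (adjusted p from 0.0413 to 0.05). Phemx, an older symbol of Tspan32 in the RefSeq gene table, falls outside the rule on symbols and was looked up after the data were seen: it had 591 counts over the air libraries and 595 over the CNC libraries.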
